A study of Mus musculus with 8 samples.

Results

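To follow how the cell death arm of the p53 program behaved once Yap1 was lost from gastric tumor epithelium, 10 p53 target genes that act in apoptosis were examined, Bax, Bbc3, Pmaip1, Fas, Tnfrsf10b, Eda2r, Phlda3, Trp53inp1, Aen and Perp. They were chosen by gene symbol as known p53 targets with a role in cell death, and they are 10 of the 25140 named genes kept from the count table. The choice was made with earlier results of these data known, and the study had already reported Bax, Phlda3 and Trp53inp1 as increased. The share of the 10 that was called is therefore a description. All 10 passed the filter on low counts. In Gp130FF; Yap1KO cells 6 of the 10 were higher than in Gp130FF; Yap1WT cells by edgeR's quasi-likelihood test (Eda2r, Phlda3, Trp53inp1, Bbc3, Bax and Aen, 1.64-fold to 29.8-fold), against 3.53% of all 13495 genes tested that were called higher. Of the other 4, Fas, Tnfrsf10b and Pmaip1 had positive and Perp had a negative log2 fold change, and none of them passed the adjusted threshold of 0.05.

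The transcription factor p53 is held at a low level by the ubiquitin ligase Mdm2 and is stabilized by DNA damage and other stress. It then switches on genes that halt the cell cycle, repair DNA or kill the cell. Its death targets act on mitochondria, where BH3-only proteins release the pore-forming protein Bax, on surface receptors of the TNF receptor family, and on survival signalling by the kinase AKT. Most of these genes have other inputs too, so a change of any one of them does not report p53 alone.

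Antral gastric tumors of 18-week-old mice, 4 Yap1KO and 4 Yap1WT, were dissociated, EpCAM-positive (epithelial) cells were isolated by flow cytometry, and 1 library was made per mouse. Every mouse carries the Gp130FF knock-in, a change of a tyrosine in the gp130 cytokine receptor that raises Stat3 signalling and gives gastric tumors. By the study's methods the mice of both groups also carry Tff1:CreERT2 and Yap1 fl/fl, and tamoxifen deletes exon 3 of Yap1 in Yap1KO mice, whereas the labels give the genotype Yap1 flox/flox to Yap1KO mice (titled Yap1_KD) and Yap1WT to the others. Deletion is limited to cells that use the Tff1 promoter, which the study places in foveolar surface cells. From Tff1 expression in Gp130FF tumors the study also infers deletion in tumor epithelial, parietal, chief, mucous neck, neuroendocrine and tuft cells. EpCAM-positive cells that do not use the promoter can keep Yap1. The labels place all 8 mice 3 days after tamoxifen, while the methods describe vehicle for Yap1WT mice. Where the methods hold, the loss of Yap1 cannot be told apart from exposure to tamoxifen or from the activation of Cre.

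Yap1 itself had 21.3, 27.6, 29.7 and 24.2 CPM (counts scaled to library size with TMM factors) in the Yap1KO libraries, against 77.1, 64.2, 78.0 and 72.5 CPM in the Yap1WT libraries (log2 fold change -1.51, adjusted p = 0.000208 by edgeR). Library totals ranged between 18229945 and 74278015 counts in Yap1KO and between 27607755 and 77483047 in Yap1WT. Yap1KO replicate 4 had the lowest total and stood apart in a principal component analysis (500 genes of highest variance), scoring -66.8 on the leading component where the other Yap1KO libraries scored -1.34 to 6.37, and it is also the Yap1KO library without counts of the Y-linked gene Ddx3y, a pattern shared by Yap1WT replicates 1 and 4 with 2 and 0 counts. The epithelial markers Epcam, Krt8, Krt18, Krt19, Cdh1 and Cldn7 summed to 8593 to 10942 CPM in Yap1KO and 9336 to 11248 CPM in Yap1WT, and 6 foveolar markers to 78348 to 105580 CPM in Yap1KO and 72761 to 119160 CPM in Yap1WT. Of these markers edgeR called Epcam and Gkn3 higher in Yap1KO, the call of Gkn3 being lost in 9 of 18 alternative analyses, and DESeq2 also called Krt18 and Tff2 higher and Krt19, Tff1 and Gkn1 lower. The median log2 fold change of the foveolar list was -0.58.

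Promoter windows of 300 bases, 250 before and 50 after an annotated start, are shown for the pair of targets in which a p53 half-site was found, Bax and Aen, and for the pair with the highest fold changes, Phlda3 and Eda2r. The sequences are those of RefSeq on GRCm38.p6, written 5′ to 3′ on the strand of the gene, with a match to the p53 half-site in capitals. The windows are chr7:45466849-45467148 (minus strand) for Bax, chr7:78895677-78895976 (plus strand) for the first of the Aen windows, chr1:135765835-135766134 (plus strand) for Phlda3 and chrX:97377160-97377459 (minus strand) for Eda2r.
Bax: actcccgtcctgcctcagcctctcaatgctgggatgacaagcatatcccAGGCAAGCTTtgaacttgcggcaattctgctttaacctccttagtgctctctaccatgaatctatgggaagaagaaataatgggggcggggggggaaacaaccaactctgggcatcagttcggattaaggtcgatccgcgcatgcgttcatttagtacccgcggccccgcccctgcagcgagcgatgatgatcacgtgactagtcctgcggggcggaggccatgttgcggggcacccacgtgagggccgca
Aen: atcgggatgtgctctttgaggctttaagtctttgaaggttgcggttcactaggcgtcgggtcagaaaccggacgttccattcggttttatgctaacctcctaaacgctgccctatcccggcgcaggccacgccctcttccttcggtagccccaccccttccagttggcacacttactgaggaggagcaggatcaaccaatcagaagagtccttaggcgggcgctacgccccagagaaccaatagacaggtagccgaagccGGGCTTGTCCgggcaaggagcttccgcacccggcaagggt
Phlda3: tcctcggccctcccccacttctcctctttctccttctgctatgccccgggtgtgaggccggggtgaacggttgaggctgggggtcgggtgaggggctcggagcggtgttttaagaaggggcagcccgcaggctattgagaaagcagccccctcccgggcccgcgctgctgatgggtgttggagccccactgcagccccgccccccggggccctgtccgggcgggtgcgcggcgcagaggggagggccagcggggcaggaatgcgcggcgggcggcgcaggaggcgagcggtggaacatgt
Eda2r: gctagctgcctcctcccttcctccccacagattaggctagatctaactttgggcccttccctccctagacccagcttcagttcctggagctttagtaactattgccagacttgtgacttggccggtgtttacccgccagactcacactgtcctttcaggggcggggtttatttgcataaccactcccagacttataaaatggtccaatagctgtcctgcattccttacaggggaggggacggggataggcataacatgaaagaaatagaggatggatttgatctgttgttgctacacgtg
The p53 half-site is a decamer whose pattern reads the same on both strands, and it was searched by that pattern with no mismatch. Of the 10 symbols, 6 matched the RefSeq table with 9 windows (Trp53inp1, Perp, Tnfrsf10b and Pmaip1 did not). Bax held 1 half-site at bases 50 to 59 of its window, and Aen held 1 at bases 261 to 270, which lies after the annotated start and also falls at bases 130 to 139 of the other, overlapping Aen window. No match was found in the windows of Bbc3, Fas, Phlda3 and Eda2r. A half-site occurred in 8.36% of all 32851 windows and 2 in tandem, at most 13 bases apart, in 0.0731%, while no window of the 10 targets held a tandem pair and 1 of the 2 windows of the arrest gene Cdkn1a did. These matches describe the letters only.

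Of the mitochondrial group, Bax encodes the BCL2 family protein that permeabilizes the outer mitochondrial membrane. Its counts were 96.3, 86.6, 104 and 110 CPM in the Yap1KO libraries, against 38.3, 46.4, 38.5 and 34.2 CPM in the Yap1WT libraries. Every Yap1KO library lay above every Yap1WT library, as it did for 7 of the 10 targets, compared with 7.19% of all genes tested. The means were 99.2 ± 10.1 CPM in Yap1KO and 39.3 ± 5.11 CPM in Yap1WT (SD, n = 4 each), a 2.52-fold difference (log2 fold change 1.33, standard error 0.12, adjusted p = 0.00026 by edgeR). In RNA from sorted cells in bulk, more cells that express a gene and more RNA per cell cannot be told apart, which holds for each of these values. The gene lies at chr7:45461695-45466903 (GRCm38.p6, minus strand) and shares exon bases with Gm45808, whose counts were not analysed here, so reads of the shared bases may belong to either.

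Bbc3 encodes PUMA, a BH3-only protein that binds the pro-survival BCL2 proteins. It had 18.4, 15.5, 15.2 and 19.0 CPM in Yap1KO libraries, against 7.79, 6.03, 6.38 and 5.51 CPM in Yap1WT libraries, with no overlap. The difference was 2.64-fold (log2 fold change 1.40, standard error 0.17, adjusted p = 0.0014 by edgeR) for this gene at chr7:16308398-16318334. Pmaip1, which encodes NOXA, the BH3-only protein that chiefly neutralizes the survival protein Mcl1, gave another picture. Its counts were 71.7, 83.4, 42.9 and 38.4 CPM in Yap1KO libraries, against 69.1, 51.5, 59.96 and 39.3 CPM in Yap1WT libraries. The groups overlapped over most of their range, and the spread of the Yap1KO libraries (37.0% of their mean) was wider than that of Bax (10.2%) or Bbc3 (11.4%). The log2 fold change was 0.10 with a 95% interval of -0.47 to 0.68 (adjusted p = 0.867 by edgeR), and it turned negative when Yap1KO replicate 1 (-0.01), Yap1KO replicate 2 (-0.11) or Yap1WT replicate 4 (-0.03) was left out or when sex was added to the fit (-0.01). The labels number the mice, replicates 1 and 2 of each group in a lower range and replicates 3 and 4 in a higher one. The log2 ratio of the Pmaip1 means was 0.36 within the lower-numbered and -0.29 within the higher-numbered mice.

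**Figure D1:**
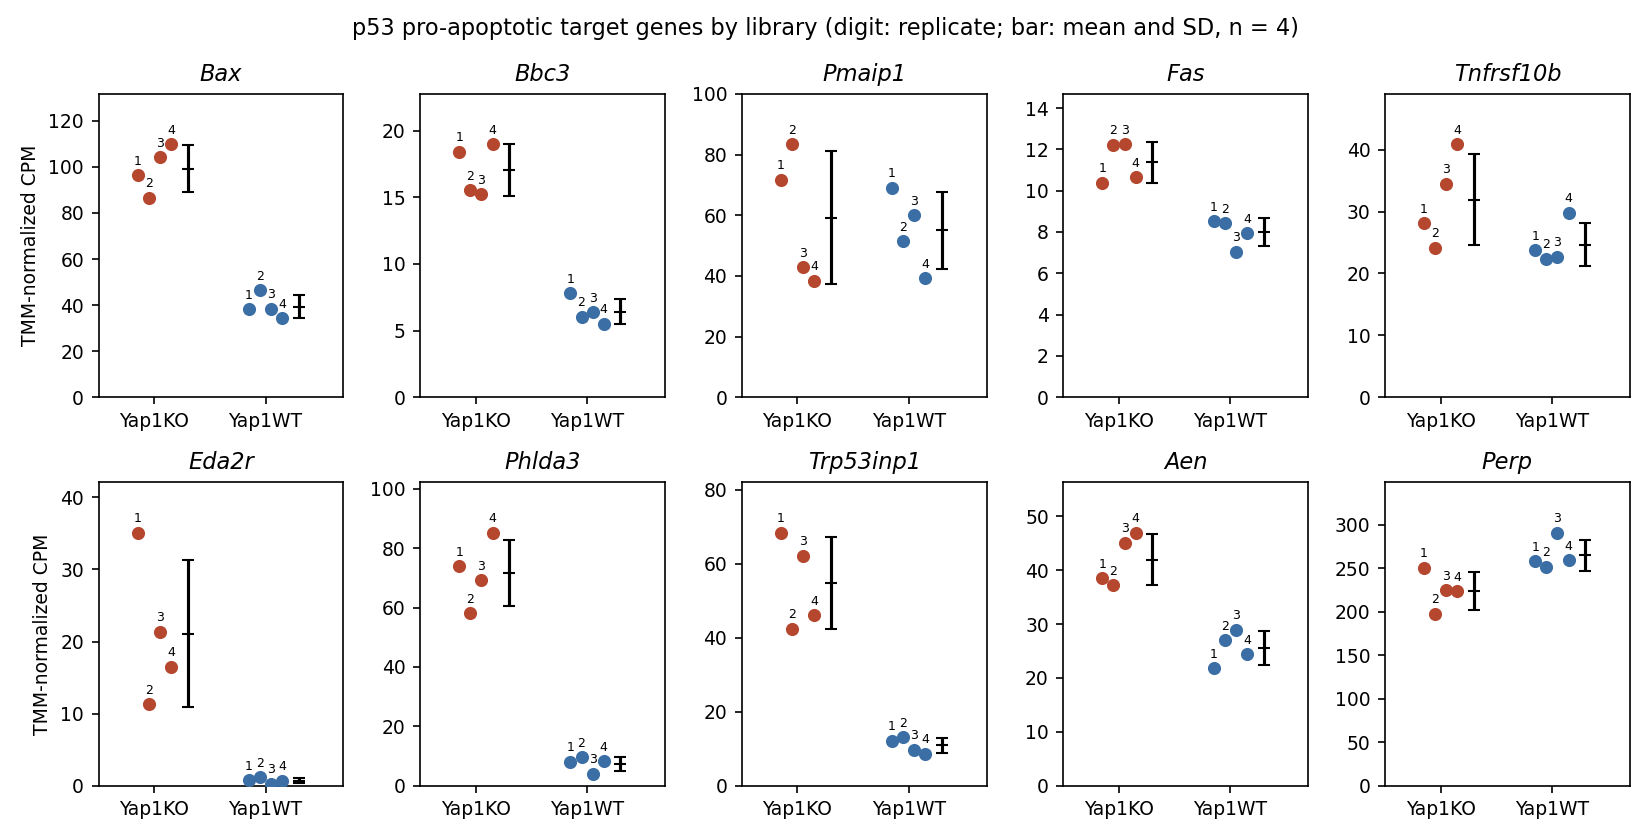
TMM-normalized CPM of each of the 10 targets in the Yap1KO libraries (left) and the Yap1WT libraries (right), with 1 point per library marked by its replicate number and a bar for the mean and SD of 4 libraries. The groups lie apart in Bax, Bbc3, Fas, Eda2r, Phlda3, Trp53inp1 and Aen with Yap1KO above, overlap in Pmaip1 and Tnfrsf10b, and lie narrowly apart in Perp with Yap1KO below.

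Among the receptors, Eda2r had the largest fold change of the 10 genes. It encodes a TNF receptor family member that binds the ectodysplasin form EDA-A2. It had 35.1, 11.3, 21.4 and 16.5 CPM in Yap1KO libraries, against 0.72, 1.19, 0.28 and 0.68 CPM in Yap1WT libraries. These values rest on 1899, 359, 1656 and 302 raw counts in Yap1KO and on 56, 51, 19 and 19 in Yap1WT. All Yap1WT libraries were near the detection filter of 0.5 CPM, and the lowest Yap1KO library lay above the highest of them. The fold change was 29.8 (log2 fold change 4.90, standard error 0.49, adjusted p = 0.000481 by edgeR), the eighth largest among the 476 genes called higher, with a 95% interval of 13.9-fold to 63.9-fold. The gene lies at chrX:97333837-97377234. Sex was not balanced between the groups, and among the libraries with Ddx3y alone (3 Yap1KO and 2 Yap1WT) the log2 ratio of the Eda2r means was 4.95, while the lone Yap1KO library without it stood at 4.56 above the 2 such Yap1WT libraries.

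Fas, the receptor of Fas ligand, lay just outside the calls. It had 10.4, 12.2, 12.3 and 10.6 CPM in Yap1KO libraries, against 8.51, 8.43, 7.04 and 7.95 CPM in Yap1WT libraries. The groups did not overlap, yet the shift was 1.43-fold with a standard error of 0.16 on the log2 scale and did not pass edgeR's test (log2 fold change 0.51, 95% interval 0.15 to 0.88, adjusted p = 0.105). DESeq2 called it (adjusted p = 0.0406), and over all 18 alternatives its adjusted p ranged between that value and 0.284. Tnfrsf10b encodes the receptor of the death ligand TRAIL. It had 28.1, 24.2, 34.5 and 40.9 CPM in Yap1KO libraries, against 23.7, 22.4, 22.7 and 29.8 CPM in Yap1WT libraries. Yap1KO replicates 1 and 2 fell below the highest Yap1WT library, so the groups overlapped (log2 fold change 0.37, 95% interval -0.01 to 0.76, adjusted p = 0.266 by edgeR). Fas lies at chr19:34290647-34327775 and Tnfrsf10b at chr14:69767472-69784411.

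The remaining targets act outside the mitochondrial and receptor groups. Phlda3 encodes a small pleckstrin homology domain protein that competes with AKT for membrane lipids and so holds back survival signalling. It had 74.0, 58.2, 69.3 and 85.3 CPM in Yap1KO libraries, against 8.03, 9.50, 4.02 and 8.20 CPM in Yap1WT libraries. The lowest Yap1KO library was several times the highest Yap1WT library, the fold change was 9.67 (log2 fold change 3.27, standard error 0.25, adjusted p = 0.000174 by edgeR), and by its p-value the gene ranked 6 of all genes tested. It lies at chr1:135766085-135769134.

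Trp53inp1 encodes a nuclear stress protein that takes part in p53-dependent cell death and in autophagy. It had 68.4, 42.5, 62.2 and 46.0 CPM in Yap1KO libraries, against 12.1, 13.2, 9.68 and 8.67 CPM in Yap1WT libraries. The groups were again apart, by 5.02-fold (log2 fold change 2.33, standard error 0.20, adjusted p = 0.000209 by edgeR), for this gene at chr4:11156441-11174379. Aen encodes an exonuclease that takes part in the breakdown of DNA in dying cells. It had 38.5, 37.3, 45.1 and 47.0 CPM in Yap1KO libraries, against 21.8, 27.0, 28.9 and 24.4 CPM in Yap1WT libraries. Its shift of 1.64-fold was the smallest among the 6 genes called (log2 fold change 0.72, standard error 0.13, adjusted p = 0.0094 by edgeR), and the gene lies at chr7:78895927-78911209.

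Perp, a tetraspan membrane protein that also builds desmosomes in epithelia, was the only one of the 10 with a negative fold change. It had 251, 198, 225 and 224 CPM in Yap1KO libraries, against 258, 252, 291 and 259 CPM in Yap1WT libraries. Yap1KO replicate 1 and Yap1WT replicate 2 were nearly level, and with that narrow gap the groups did not overlap, which with Yap1KO below held for 6.01% of all genes tested. The shift was 0.85-fold and did not pass the adjusted test (log2 fold change -0.24, standard error 0.10, adjusted p = 0.213 by edgeR). Thus edgeR called 0 of the 10 lower, against 2.34% of all genes tested, and DESeq2 and limma-voom also called 0 lower (1 at edgeR's unadjusted p under 0.05). Perp lies at chr10:18845071-18857073.

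**Figure D2:**
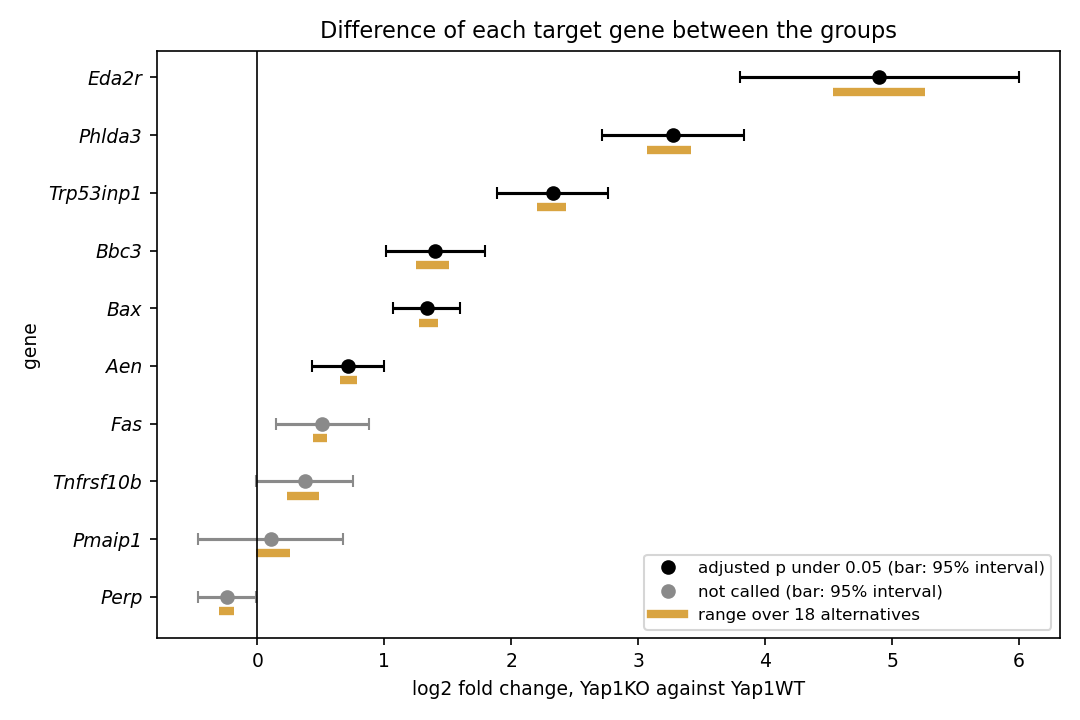
Log2 fold change of each target in Yap1KO against Yap1WT with its 95% interval (points and black or grey bars). Yellow bars join the estimates of smallest and largest size, regardless of sign, over 18 alternative analyses. The 6 genes called higher lie between 0.72 and 4.90 and their yellow bars stay well above 0, whereas that of Pmaip1 spans 0. The yellow bar of Pmaip1 runs between -0.0075 and 0.2587. It is not the full range, since it leaves out the more negative estimates given in the text.

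Across the 10 genes the median log2 fold change was 1.03, and it was -0.01 over all genes tested, with 9 of the 10 above 0. The 6 calls were made in each of the 18 alternatives. Each range of mouse numbers holds 2 mice per group. Within the lower-numbered mice the log2 ratios of the group means for these 6 ran between 0.63 for Aen and 4.60 for Eda2r. Within the higher-numbered mice they ran between 0.79 and 5.31 for the same pair of genes. Within the libraries with Ddx3y (3 Yap1KO and 2 Yap1WT) the 6 ratios lay between 0.53 for Aen and 4.95 for Eda2r. The lone Yap1KO library without it, replicate 4, gave ratios between 1.02 and 4.56 against the 2 such Yap1WT libraries. Among the Yap1KO libraries, replicate 2 was the lowest in 5 of the 6 genes, replicate 4 was the highest in 4 and replicate 1 in the other 2. The spread between the Yap1KO mice differed from gene to gene, with the highest library 3.10 times the lowest for Eda2r, 1.61 times for Trp53inp1 and 1.18 times for Fas.

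The deposited log2 RPKM values, which are scaled to gene length, allow the levels of the genes to be set side by side. In Yap1KO libraries Perp and Bax were the most abundant, with mean levels of 6.91 and 6.86 and ranges that overlapped (6.78 to 7.02 and 6.70 to 6.99), followed by Phlda3 at 5.62. Pmaip1 at 4.43 and Aen at 4.04 overlapped with each other, as did Trp53inp1, Tnfrsf10b and Bbc3, at mean log2 levels of 3.33, 3.31 and 3.10. Fas at 2.65 and Eda2r at 1.73 came last and overlapped through Yap1KO replicate 1, in which Eda2r reached 2.62. In Yap1WT libraries Perp also came first, at 7.13, without overlap with Bax at 5.51, and Eda2r came last at -3.16. The order between them differed. Phlda3 stood in the third place in Yap1KO libraries and in the sixth in Yap1WT libraries, where its log2 level of 2.38 was close to that of Fas (2.21), and Trp53inp1 stood in the sixth place and, at 1.05, in the ninth. On this scale the exact two-sided permutation test of 4 against 4 libraries gave its smallest possible p of 0.029 for 8 of the 10 genes, against 13.5% of all 13819 genes with such values, and p was 0.143 for Tnfrsf10b and 0.83 for Pmaip1.

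**Figure D3:**
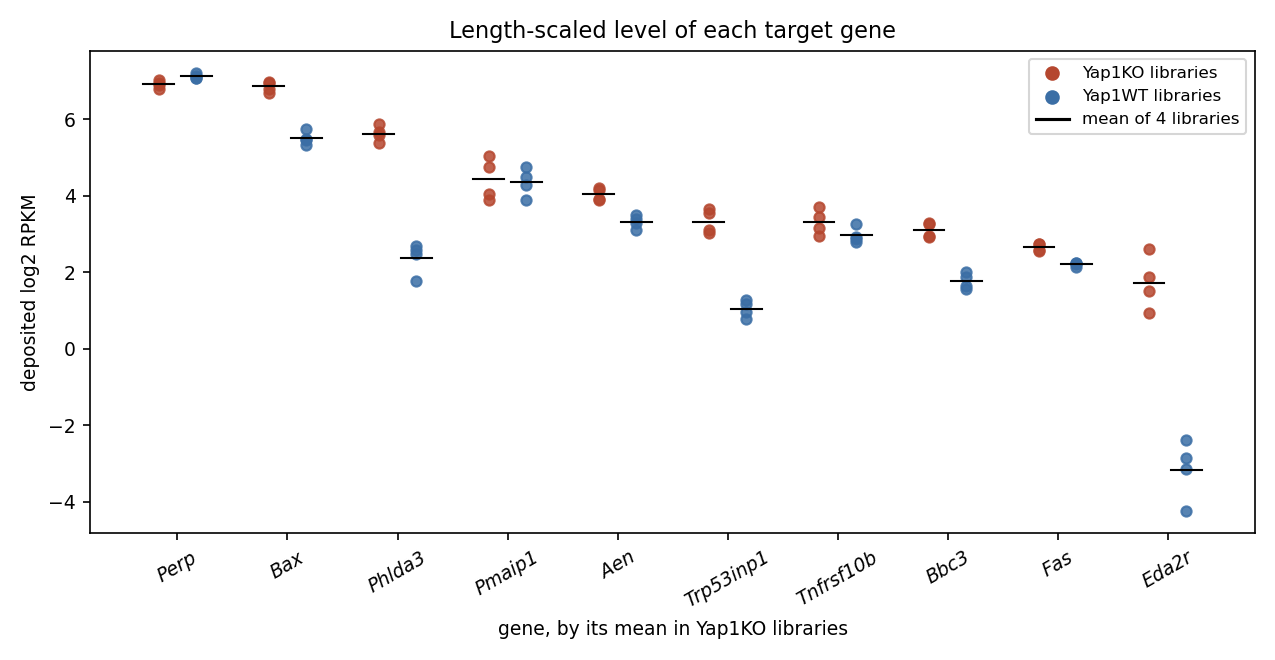
Deposited log2 RPKM of the 10 targets in each Yap1KO library (red) and each Yap1WT library (blue), with a black line for the mean of 4 libraries and genes ordered by their mean in Yap1KO. Perp and Bax lead in both groups, and Phlda3, Trp53inp1 and Eda2r show the widest distances between the groups.

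The other p53 genes were taken from lists written from general knowledge. Trp53 itself, which encodes p53, had 39.2, 42.7, 49.5 and 52.6 CPM in Yap1KO libraries, against 41.3, 37.2, 37.6 and 42.8 CPM in Yap1WT libraries, and these overlapped (log2 fold change 0.21, adjusted p = 0.352 by edgeR). Among 16 tested genes of p53 and its regulators, the modifying enzymes and cofactors that set its stability and activity, edgeR called 0 in either direction (2 higher and 3 lower at an unadjusted p under 0.05, 1 higher and 0 lower by DESeq2, 0 and 0 by limma-voom), with a median log2 fold change of -0.06. Its members with the most CPM, which is not scaled to gene length, the deubiquitinase gene Usp7 and the acetyltransferase gene Ep300, had log2 fold changes of -0.15 and 0.13 (adjusted p = 0.366 and 0.756 by edgeR), and that of Ep300 was -0.03 without Yap1KO replicate 1. Of 13 tested genes of feedback and cell cycle arrest, 6 were higher and 0 lower by edgeR (DESeq2 and limma-voom also called 0 lower, as did edgeR's unadjusted p under 0.05), with a median of 0.63. They include the cyclin gene Ccng1 (514 ± 112 CPM in Yap1KO and 127 ± 14.6 CPM in Yap1WT, SD, n = 4 each, log2 fold change 2.02), the stress sensor gene Sesn2 (1.79), the cyclin-dependent kinase inhibitor gene Cdkn1a (301 ± 72.3 CPM in Yap1KO and 107 ± 9.20 CPM in Yap1WT, 1.49), the RNA-binding protein gene Zmat3 (1.21) and Mdm2 (89.3 ± 16.6 CPM in Yap1KO and 49.4 ± 2.63 CPM in Yap1WT, 0.85). Of 11 tested targets in metabolism and DNA repair, Ddit4, an inhibitor of mTORC1 signalling, was the only one called by edgeR (log2 fold change 1.40, adjusted p = 0.00188), the median of the list was 0.18, and DESeq2 called 2 higher and 1 lower.

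Of 8 further p53 targets of apoptosis, Pidd1, which encodes a scaffold of caspase-2 activation, and Siva1, which encodes a death domain partner, were called higher by edgeR at log2 fold changes of 1.22 and 1.05 (adjusted p = 0.0361 and 0.0403). These calls were lost in 7 and 10 of the 18 alternatives, among them 6 and 7 of the 8 in which a library was left out. In the BCL2 family and mitochondrial pathway, whose list shares Bid, Apaf1 and Casp6 with these 8, edgeR called 1 of 21 higher, the pore-forming Bok (137.8 ± 28.4 CPM in Yap1KO and 81.9 ± 13.6 CPM in Yap1WT, SD, n = 4 each, log2 fold change 0.75, adjusted p = 0.0259), which lost the call in 5 of the 8 fits without a library, and 0 lower (likewise 0 by DESeq2 and limma-voom, and 1 at an unadjusted p under 0.05). The median of that list was 0.06. The survival gene Mcl1, whose product NOXA binds, had a log2 fold change of -0.12 (adjusted p = 0.567 by edgeR). Of 12 tested death receptor ligands and adaptors, 2 were higher and 0 lower by edgeR (DESeq2 and limma-voom likewise called 0 lower, and 1 had an unadjusted p under 0.05), with a median of 0.20. They were the TRAIL gene Tnfsf10 (11.3 ± 1.89 CPM in Yap1KO and 3.70 ± 1.01 CPM in Yap1WT, SD, n = 4 each, log2 fold change 1.61) and the TRAIL-binding receptor gene Tnfrsf23 (1.69), while Eda, which encodes the ligand of the Eda2r receptor, had a log2 fold change of -0.84 (adjusted p = 0.151 by edgeR).

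**Figure D4:**
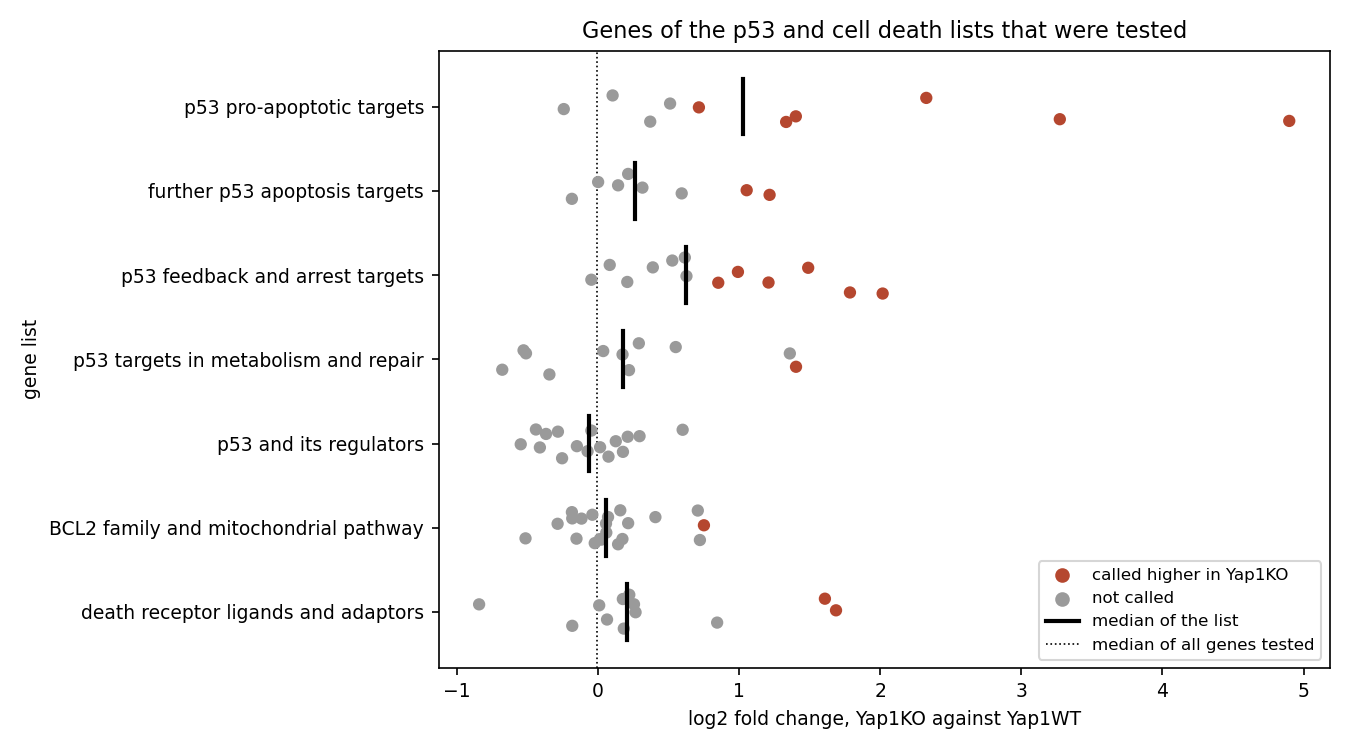
Log2 fold change in Yap1KO against Yap1WT of every tested gene of the 10 targets and of 6 related lists, with called genes in red and genes not called in grey. Black lines mark list medians and the dotted line the median of all genes tested (-0.01). The list medians run between -0.06 for p53 and its regulators and 1.03 for the 10 targets.

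Markers of other cell types were also compared between the groups. The 8 endothelial markers all had positive fold changes (median log2 fold change 1.41), of which edgeR called 2, Tie1 and Vwf, DESeq2 5 and limma-voom 7, and edgeR lost Tie1 and Vwf in 6 each of the 8 fits without a library. They summed to 567, 939, 757 and 1138 CPM in Yap1KO libraries, against 276, 266, 156 and 602.5 CPM in Yap1WT libraries. The 8 fibroblast markers, none called by any of the 3 tools (0 by edgeR at an unadjusted p under 0.05) although edgeR with a sex term called Col3a1 (log2 fold change 1.77, adjusted p = 0.0334), had a median of 1.04 and summed to 317, 468, 873 and 1054.5 CPM in Yap1KO libraries, against 358, 151, 84.6 and 701 CPM in Yap1WT libraries. Yap1WT replicate 4 had a higher endothelial sum than Yap1KO replicate 1 and a higher fibroblast sum than Yap1KO replicates 1 and 2. The 6 called targets, set apart here by their difference between the groups, did not overlap between them. Among the Yap1WT libraries replicate 4 was the lowest for Bax, Bbc3 and Trp53inp1 but not for Phlda3, Eda2r and Aen, and it was the highest for Tnfrsf10b. Yap1WT replicate 3, with the lowest sums of both marker lists, was the lowest for Phlda3 and Eda2r. Yap1KO replicate 4 had the highest sums of both lists. Among the Yap1KO libraries it was the highest for Bax, Bbc3, Phlda3 and Aen but not for Trp53inp1 and Eda2r. It was also the highest of them for Tnfrsf10b and the lowest for Pmaip1. Among mast cell markers Mcpt4 was higher in Yap1KO (118 ± 78.0 CPM, against 3.02 ± 2.24 CPM in Yap1WT, SD, n = 4 each, adjusted p = 0.00183 by edgeR), Kit was not called, and Tpsb2 and Fcer1a were at 0 in every Yap1KO library (at most 0.49 and 0.043 CPM in Yap1WT) while Cpa3 reached at most 0.12 CPM in Yap1KO and 0.56 CPM in Yap1WT. T and NK cell markers summed to at most 0.41 CPM in a Yap1KO library and 0.37 CPM in a Yap1WT library, with Cd8a, Klrb1c and Ncr1 at 0 throughout. B and plasma cell markers reached at most 2.94 and 1.86 CPM, neutrophil markers 2.43 and 0.91 CPM, and macrophage and dendritic cell markers 16.6 and 10.04 CPM in Yap1KO and Yap1WT libraries, and of all these Cd68 alone was called (log2 fold change 1.06, adjusted p = 0.0468 by edgeR), a call lost in 9 of the 18 alternatives with adjusted p up to 0.143. Of 14 genes induced by tissue dissociation, 1 (Ier3) was higher and 0 lower by edgeR (3 higher and 0 lower at an unadjusted p under 0.05, 2 and 0 by DESeq2), with a median of 0.26. The part of these cells and of dissociation in the p53 target values was not tested.

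**Figure D5:**
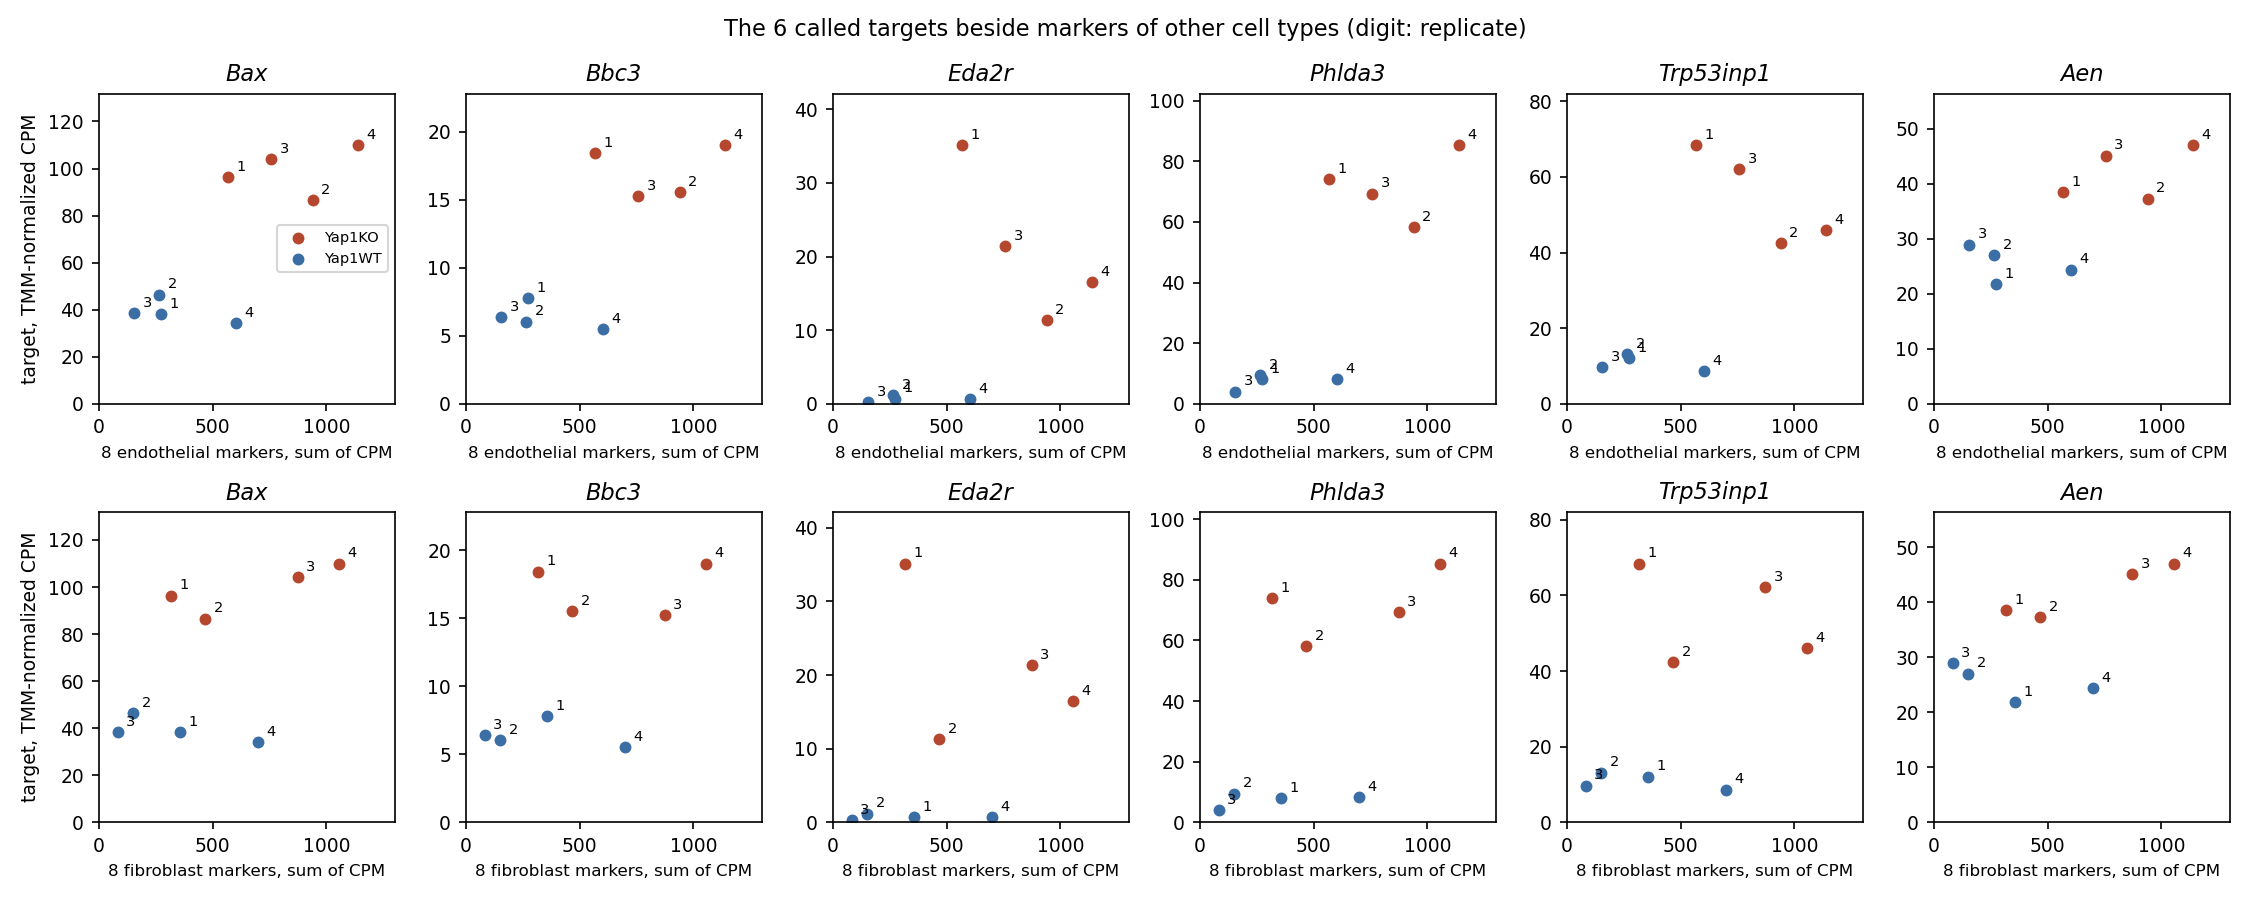
CPM of each of the 6 called targets (vertical axes) beside the summed CPM of 8 endothelial markers (top row) and 8 fibroblast markers (bottom row), with 1 point per library, Yap1KO in red and Yap1WT in blue, marked by replicate number. The marker sums of the groups overlap through Yap1WT replicate 4 (602.5 CPM of endothelial and 701 CPM of fibroblast markers). The fibroblast sums also overlap through Yap1WT replicate 1, with 358 CPM against 317 CPM in Yap1KO replicate 1. In both groups the full order of the libraries differs from target to target, although Yap1KO replicate 2 is the lowest Yap1KO library in 5 of the 6.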

How the data were processed

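RNA of EpCAM-positive antral tumor cells was sequenced from 4 Yap1KO and 4 Yap1WT mice with an unstranded kit, so reads of overlapping genes on opposite strands cannot be told apart. The authors deposited whole-number counts per gene, made with featureCounts from reads that Subread had aligned to GRCm38/mm10. The authors made the deposited log2 RPKM values with voom and quantile normalization in limma, and how gene length entered is not stated. The count table holds 6 further columns that match no sample and were not used. Entries without a gene name (0.552% to 0.789% of the counts of a library) and pseudogenes were left out, except 73 pseudogene entries that the log2 values hold.

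Genes above 0.5 CPM in at least 6 libraries entered edgeR's quasi-likelihood F test with TMM factors (edgeR 4.0.16 in R 4.3.3), and p-values were adjusted by Benjamini-Hochberg over all genes tested, at a threshold of 0.05. Intervals are at 95%. The method was tested on simulated data. Permutation tests were exact and two-sided on the deposited log2 values (scipy 1.17.1), and plots were drawn with matplotlib 3.10.9 (Python 3.11.15).

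The 10 targets, the gene lists and the naming rule were chosen with earlier results of these data known. The rule names the 10 targets, Yap1, Trp53, Mdm2 and Cdkn1a, the 4 called genes of lowest p in either direction of a list (the 2 most abundant where none was called), and the 5 genes most correlated with the targets. Eda, Mcl1, Kit, Ddx3y, Krt18, Krt19, Tff1, Tff2, Gkn1 and the marker genes given at 0 were named after their values were seen. The lists cover feedback and arrest, metabolism and repair, regulators, further apoptosis targets, the BCL2 family, death receptors, interferon-induced genes, dissociation stress, and markers of endothelial, fibroblast, mast, neutrophil, macrophage or dendritic, B or plasma, T or NK, foveolar and general epithelial cells.

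The 18 alternatives were limma-voom (limma 3.58.1) with quantile normalization, DESeq2 1.42.0, RLE factors, library sizes without the 20 most abundant genes, a filter at 4 libraries, no filter, the replicate number as a block, the range of mouse numbers as a block, sex as a covariate (read from Ddx3y), limma-trend on the deposited log2 values, and leaving out each of the 8 libraries.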

Additional observations from a re-analysis of the deposited data

How the results depend on the processing

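The 6 calls among the 10 targets were made in all 18 alternatives, and DESeq2 added Fas for a count of 7. Over all genes tested, edgeR's 476 higher and 316 lower became 858 and 587 by DESeq2, and 755 and 552 with the replicate block. Leaving out 1 library gave 241 to 481 higher and 156 to 292 lower, the fewest without Yap1WT replicate 3. The fits without a library also have fewer samples, and the cause of these changes was not tested. The log2 fold change of Pmaip1 was -0.0111 with a sex term and lay between -0.1065 (without Yap1KO replicate 2) and 0.2587 (without Yap1KO replicate 4) with 1 library left out, and that of Ep300 between -0.0307 (without Yap1KO replicate 1) and 0.274. None of these passed the test. The correlations of same-numbered deviations were -0.129, 0.155, 0.109 and -0.046. Such values cannot settle whether the replicate numbers pair the mice, so the block was kept as an alternative. The block changed no call among the 10 targets. With 4 libraries per group the intervals of Fas, Tnfrsf10b, Pmaip1 and Perp leave room for shifts of up to 1.83-fold, 1.69-fold and 1.6-fold upward for the first 3 and down to 0.72-fold for Perp. For Eda2r the Yap1WT level rests on 19 to 56 counts.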

Other observations

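The genes whose log2 CPM followed the 10 targets most closely over the 8 libraries were sought among 13485 other genes by Pearson's r with the mean z-score of the 10, as a description, since all 8 points share the division into groups. The 5 highest were the interferon regulatory factor gene Irf7 (r = 0.996), the p53 target Ccng1 (0.995), and the interferon-induced genes Mx1 (0.993), Isg15 (0.992) and Ifit1 (0.992). Irf7 had 252.6, 102, 229 and 182 CPM in Yap1KO libraries, against 15.4, 14.3, 8.92 and 6.73 CPM in Yap1WT libraries. Replicate 2 was thus the lowest of the Yap1KO libraries in Irf7, as it was for 5 of the 6 targets called. Irf7 was picked for its correlation with the targets, so this shared order is not a separate likeness.

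All 13 interferon-induced genes of the list were higher in Yap1KO by edgeR (median log2 fold change 4.58), and they summed to 1073, 569, 1246 and 943 CPM in Yap1KO libraries, against 145, 144, 109 and 127 CPM in Yap1WT libraries. The list holds antiviral effectors and the transcription factors that drive them, with Oas3, Ifit1, Isg15 and Mx1 at log2 fold changes of 5.93, 5.48, 5.27 and 3.69. Replicate 3 was the highest Yap1KO library on this list and replicate 2 the lowest. In the 6 targets called, replicate 4 was the highest in 4 and replicate 2 the lowest in 5. Whether the interferon-induced genes have a part in the p53 target values was not tested.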
